A study of Mus musculus with 2 samples.

Results

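Trem2, Apoe and 8 further genes that mark disease-associated microglia were followed in single hippocampal cells of Mr1+/+ and Mr1-/- mice. The members were the rows of the gene tables whose symbol is Trem2, Tyrobp, Apoe, Axl, Lpl, Cst7, Clec7a, Itgax, Lyz2 or Cd9. For 9 of these 10 symbols a row was found among 31053 genes. No row matched Clec7a, which encodes the beta-glucan receptor dectin-1, so this gene was not analysed here. GENCODE M21 lists Clec7a as a polymorphic pseudogene at chr6:129461591-129472779 on the minus strand. The mice were 7 months old and had no treatment. Each genotype was represented by 1 library of live nucleated cells, gated to be negative for DAPI (which stains dead cells) and positive for the DNA dye Draq5. Tissue was dissociated with a kit for neurons, and libraries were made with a 10x 5' kit, which tags each captured transcript with a unique molecular identifier (UMI). The Mr1-/- mice lack Mr1, which shows microbial vitamin metabolites to mucosal-associated invariant (MAIT) T cells. The labels give no other allele for either group and do not say how many mice were pooled. Genotype therefore cannot be told apart from mouse, dissection, sort or library.

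There were 6410 barcodes and 23244575 UMIs for Mr1+/+, and 5347 barcodes and 18349132 UMIs for Mr1-/-, with medians of 3160 and 2935 UMIs per barcode. The libraries shared 44 barcodes. Mr1 itself had 130 UMIs in the kept Mr1+/+ cells and 2 in the kept Mr1-/- cells. Cells were grouped into clusters and named from marker genes. The microglia-like class held 643 of 5992 kept Mr1+/+ cells (10.7%) and 745 of 5107 kept Mr1-/- cells (14.6%). Its markers P2ry12, Tmem119, Cx3cr1, Csf1r, C1qa and C1qb each had a UMI in over 99% of these cells in both libraries, and Aif1 had one in 87.9% and 90.2%. The astrocyte-like class held 956 cells (16.0%) and 477 cells (9.34%). Levels are given in CPM, here the UMIs of a gene relative to all UMIs of its class and library, and ratios are Mr1-/- over Mr1+/+. With 1 library per genotype no test was possible, and the 95% intervals cover counting error only.

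TREM2 is a lipid-sensing receptor of microglia that signals through the adaptor TYROBP, also called DAP12. In mouse models of amyloid and myelin disease, microglia near the lesion lower their homeostatic genes. They raise Tyrobp, Apoe and Lyz2 in a first stage, and Lpl, Cst7, Axl, Itgax, Clec7a and Cd9 in a second stage that needs TREM2. Apolipoprotein E, which carries lipids between cells and is bound by TREM2, is made in the healthy brain mainly by astrocytes.

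Trem2 lies at chr17:48346401-48354147 and Tyrobp at chr7:30413760-30417585, both on the plus strand of mm10. Apoe lies at chr7:19696109-19699188, minus strand, and Axl at chr7:25757273-25788705, minus strand. Lpl (chr8:68880491-68907448), Cst7 (chr2:150570415-150578944) and Itgax (chr7:128129547-128150657) are on the plus strand. Lyz2 (chr10:117277331-117282321) and Cd9 (chr6:125460266-125494791) are on the minus strand. All 9 are protein-coding, and none of them overlaps another gene in GENCODE M21 except Cd9. The genes Gm28809 and Gm26728 lie on the strand opposite to Cd9. Gm28809 had 5 and 10 UMIs in all kept cells, and Gm26728 has no row in the gene tables. The upstream sequences of 3 members that were nearly limited to microglia-like cells are shown with that of Apoe, which was detected in every class. Each run holds the 250 bases before the RefSeq start of the gene (GRCm38.p6, the build also called mm10), 5′ to 3′ in the direction of transcription. For Apoe the start farthest upstream of 3 in the table is used. Capitals mark matches of GAGGAA, the core bound by the macrophage factor PU.1, and of TGANTCA, the AP-1 element, on either strand.
Trem2, chr17:48346151-48346400, plus strand: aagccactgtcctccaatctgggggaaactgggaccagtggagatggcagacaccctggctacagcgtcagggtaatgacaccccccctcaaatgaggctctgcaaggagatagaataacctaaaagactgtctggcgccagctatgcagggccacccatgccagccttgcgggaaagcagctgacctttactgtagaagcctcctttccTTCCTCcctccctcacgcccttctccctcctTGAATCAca
Cst7, chr2:150570165-150570414, plus strand: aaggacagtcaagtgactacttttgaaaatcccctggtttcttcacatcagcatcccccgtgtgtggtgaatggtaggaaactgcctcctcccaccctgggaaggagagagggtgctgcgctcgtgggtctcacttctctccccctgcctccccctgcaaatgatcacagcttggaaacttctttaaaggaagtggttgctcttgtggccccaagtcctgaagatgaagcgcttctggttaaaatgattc
Itgax, chr7:128129300-128129549, plus strand: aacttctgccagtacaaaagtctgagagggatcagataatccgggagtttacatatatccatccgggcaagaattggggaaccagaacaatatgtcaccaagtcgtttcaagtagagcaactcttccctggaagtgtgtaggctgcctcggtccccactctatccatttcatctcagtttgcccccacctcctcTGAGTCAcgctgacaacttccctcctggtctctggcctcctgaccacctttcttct
Apoe, chr7:19699189-19699438, minus strand: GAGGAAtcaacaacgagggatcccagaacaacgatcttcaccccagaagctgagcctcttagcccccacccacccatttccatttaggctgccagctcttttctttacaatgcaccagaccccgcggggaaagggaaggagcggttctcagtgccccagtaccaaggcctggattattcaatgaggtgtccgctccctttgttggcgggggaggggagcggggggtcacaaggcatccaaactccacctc
Trem2 has 1 match of GAGGAA, on the reverse strand, and 1 of TGANTCA, which do not overlap. Itgax has 1 match of TGANTCA, Apoe has 1 of GAGGAA at the far end of the run, and Cst7 has neither. Over all 32851 windows of this length in the table, GAGGAA occurs in 23.3% and TGANTCA in 6.75%. The element CACGTG, searched in the same way, is in none of these 4 runs and in 6.02% of all windows. These are matches of letters in a short window and were not tested for binding.

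The 5 members Trem2, Tyrobp, Cst7, Itgax and Lyz2 were nearly limited to microglia-like cells. Of all Trem2 UMIs in kept cells, 97.3% (Mr1+/+) and 99.0% (Mr1-/-) came from this class. The class held 97.4% and 98.7% of the UMIs of Tyrobp. For Lyz2 the shares were 97.7% and 96.8%. Cst7 had 74 of 75 and 74 of 74 UMIs there, and Itgax had 18 of 19 and 14 of 14. Neither Cst7 nor Itgax had a UMI in any of the 7 other classes compared. The other 4 members had other orders. Apoe was highest in astrocyte-like cells, Axl in mural-like cells, Lpl in mural-like and ependymal-like cells, and Cd9 in microglia-like cells, followed by ependymal-like and oligodendrocyte-like cells.

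**Figure D1:**
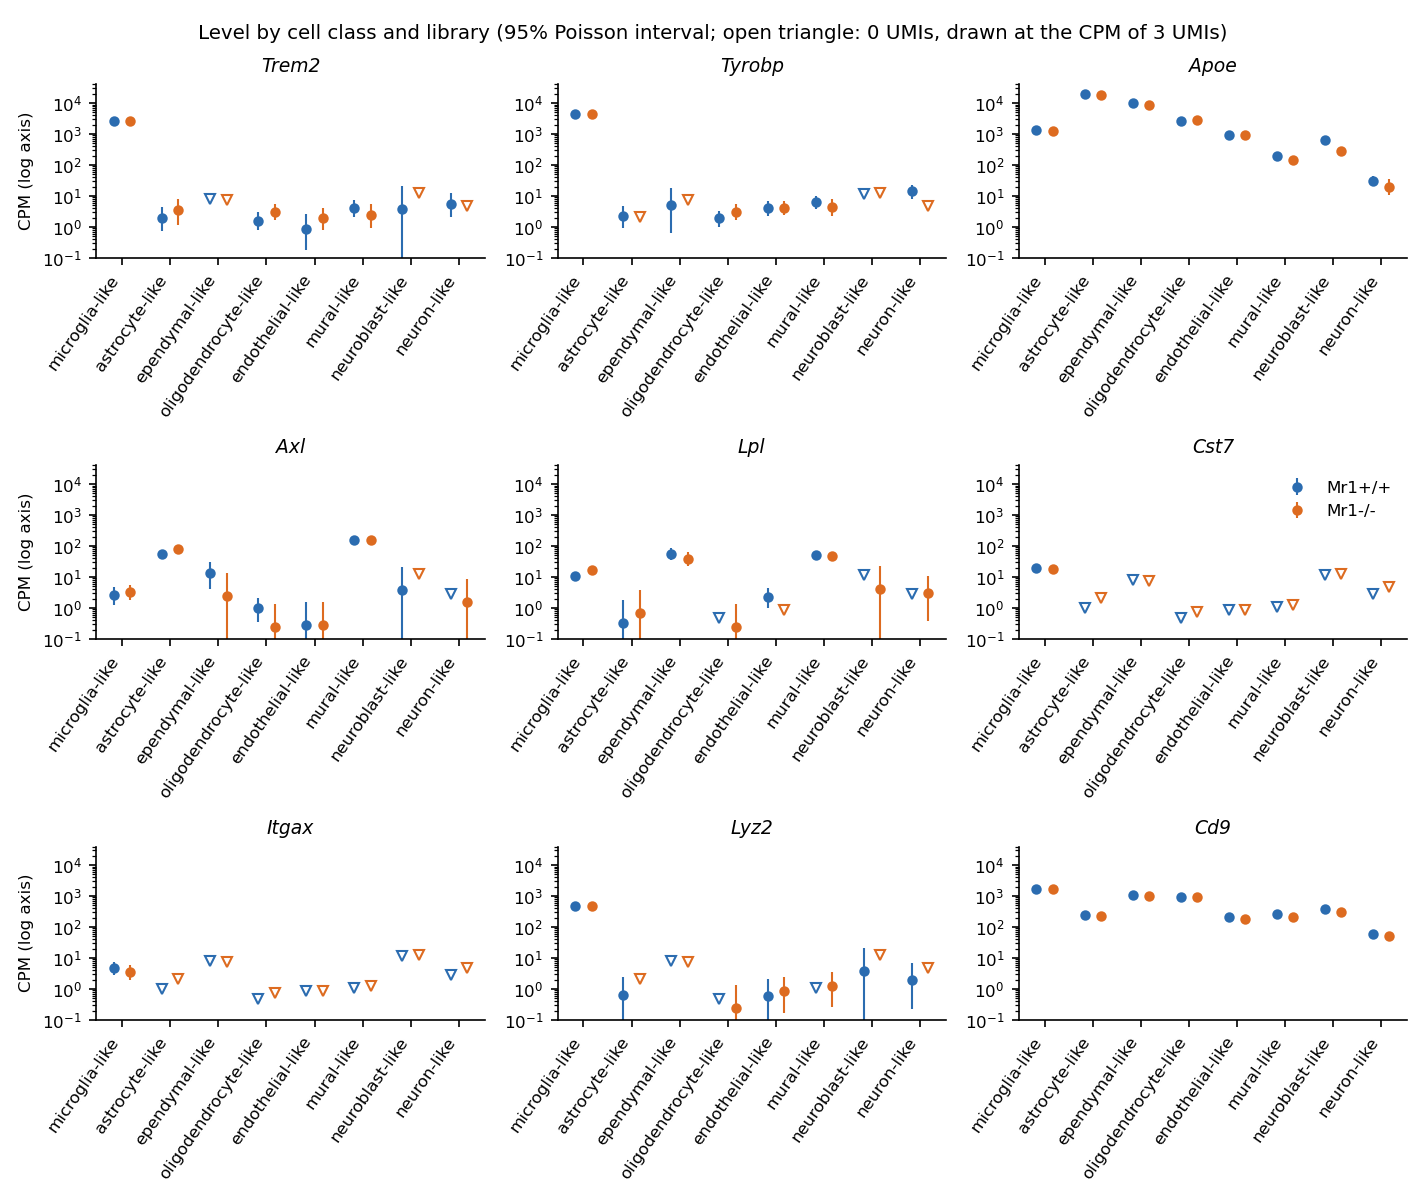
Level of each measured member in 8 cell classes, in CPM on a log axis, for the Mr1+/+ (blue) and Mr1-/- (orange) libraries. Points are sums over the cells of a class with 95% Poisson intervals, and open triangles stand for 0 UMIs at the level that 3 UMIs would give. Trem2, Tyrobp, Cst7, Itgax and Lyz2 stand out in microglia-like cells, and Apoe is highest in astrocyte-like cells in both libraries.

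In microglia-like cells the receptor and its adaptor differed little between the libraries. Trem2 had 9724 UMIs (2569 CPM) in Mr1+/+ and 10464 UMIs (2645 CPM) in Mr1-/- cells, a ratio of 1.03 (1.001 to 1.058). Tyrobp had 16241 UMIs (4291 CPM) and 17672 UMIs (4466 CPM), a ratio of 1.04 (1.02 to 1.06). Both genes were nearly universal in the class. Trem2 had a UMI in 99.7% of the cells of each library, and 97.6% and 97.3% after every cell was thinned to 1500 UMIs. In oligodendrocyte-like cells, which should lack the gene and had similar median depths (4354 and 4181 UMIs against 4293 and 3815), the Trem2 shares were 0.696% and 0.731%.

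The second-stage genes Lpl, Cst7, Axl and Itgax were rare in both libraries. Lpl, which encodes lipoprotein lipase, the enzyme that frees fatty acids from lipoproteins, had 41 UMIs (10.8 CPM) in Mr1+/+ and 66 UMIs (16.7 CPM) in Mr1-/- microglia-like cells. The ratio was 1.54 (1.03 to 2.33), and the shares of cells with a UMI were 4.04% and 4.70%. A single Mr1-/- cell held 13 of the 66 UMIs, and no Mr1+/+ cell held more than 4. Without the 5 cells of each library with the most Lpl, the log2 ratio was 0.32 in place of 0.62. A finer clustering moved 43 Mr1+/+ and 95 Mr1-/- cells out of the class, into a cluster led by Ccl4, Cd74 and Ccl3 that its markers, with Pf4 and F13a1 among its leading genes, named border macrophage-like. It also brought in 87 and 41 shallow cells that were unnamed before. The log2 ratio over the class so formed was -0.01. In the cluster led by Ccl4, Cd74 and Ccl3, Lpl was at 32.4 CPM from 7 UMIs and 75.1 CPM from 32 UMIs. Most of these UMIs lay in cells with fewer than 3 of the border macrophage markers given below. In those cells Lpl was at 41.8 CPM from 6 UMIs and 86.3 CPM from 28 UMIs.

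Cst7 encodes cystatin F, an inhibitor of lysosomal cysteine proteases. It had 74 UMIs in each library, at 19.55 and 18.7 CPM, and a UMI in 7.47% and 6.71% of cells. Axl, a receptor tyrosine kinase that binds GAS6, a bridge to dying cells, had 10 and 13 UMIs (2.64 and 3.29 CPM). Itgax, which encodes the integrin chain CD11c, had 18 and 14 UMIs (4.755 and 3.54 CPM). At these counts the ratios of Axl (1.24, 0.504 to 3.17) and Itgax (0.744, 0.343 to 1.58) allow a difference in either direction, and none was detectable at this depth.

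Lyz2, the lysozyme of myeloid cells, had 1802 UMIs (476 CPM) and 1834 UMIs (464 CPM), a ratio of 0.974 (0.912 to 1.04). Its copy Lyz1 shares 15.4% of the 50-base windows of the longest Lyz2 transcript and had 1 UMI in each library. Neutrophils, which also carry Lyz2, had markers summing to 20.6 and 0.253 CPM in the class, with 3 and 5 of 6 at 0, and their part was not tested. Cd9, a tetraspanin of the cell surface, had 6604 UMIs (1745 CPM) and 6669 UMIs (1685 CPM), a ratio of 0.966 (0.9336 to 0.9997). Apoe had 5095 UMIs (1346 CPM) and 5075 UMIs (1283 CPM), a ratio of 0.953 (0.916 to 0.991). A fold limit was set at a ratio over 5/4 or under 4/5. Of the 7 members with at least 50 UMIs over both libraries, only Lpl was past it. Over all 8830 genes with as many UMIs in this class, 16.1% were past it. The members' median log2 ratio was -0.04, beside -0.03 for all these genes.

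**Figure D2:**
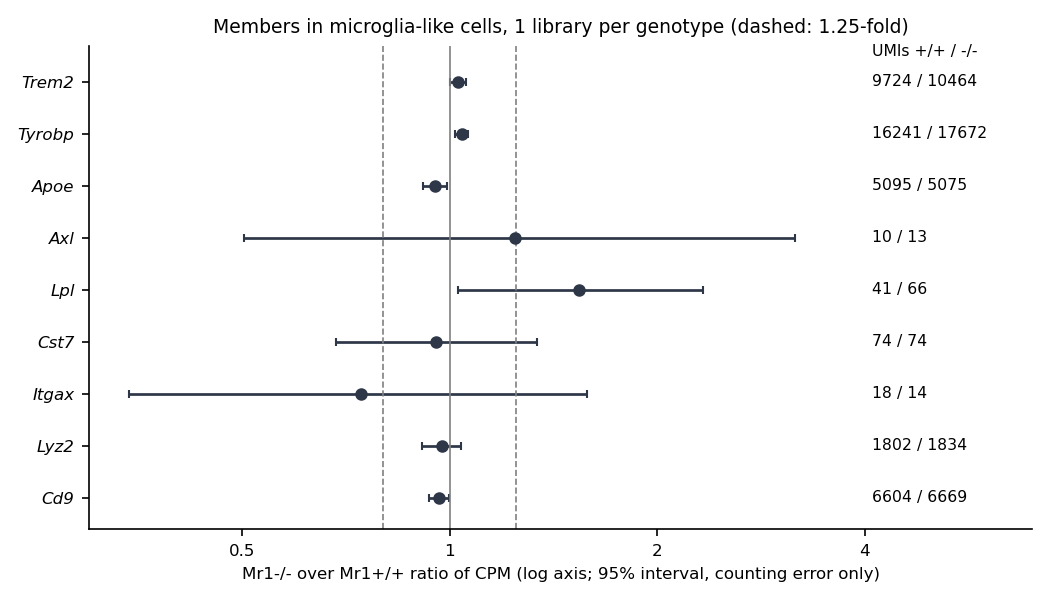
Ratio of CPM, Mr1-/- over Mr1+/+, of the 9 measured members in microglia-like cells, on a log axis with exact 95% intervals. Dashed lines mark the fold limit, and the UMIs of both libraries stand at the right. Trem2, Tyrobp, Apoe, Lyz2 and Cd9 lie between 0.953 and 1.04, while the intervals of Axl, Lpl, Cst7 and Itgax are wide.

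The picture differed when whole libraries were summed. Over all kept cells Trem2 was at 466 and 610 CPM, a ratio of 1.31 (1.27 to 1.35). Tyrobp was at 777 and 1033 CPM, a ratio of 1.33. Apoe was at 4249 and 3026 CPM, a ratio of 0.712 (0.705 to 0.720). The microglia-like share of cells was higher and the astrocyte-like share lower in the Mr1-/- library, as given above, and within these 2 classes the ratios were 1.03 for Trem2 and 0.932 for Apoe.

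Within the microglia-like class the members fell into genes spread over all cells and genes concentrated in few. The 10% of cells with the most Trem2 held 29.7% and 28.1% of its UMIs. For Cd9 this share was 30.7% and 31.8%. For Apoe it was 67.9% and 63.7%, and the top 2% of cells alone held 36.0% and 33.3%. The median cell had 1 Apoe UMI in both libraries, while the highest had 281 and 244. Lyz2 lay between, with 49.45% and 50.1% in the top 10%. Lyz2 was also low, with a median of 1 UMI, and fewer UMIs per cell alone make a gene look less even. Apoe had a UMI in 62.2% and 58.7% of microglia-like cells, against 9.12% and 4.19% of neuron-like cells at medians of 3510 and 3525 UMIs. Neuron-like cells were the lowest class for Apoe. The shares were 22.6% and 18.6% in mural-like, 74.4% and 76.9% in endothelial-like and 95.4% and 97.8% in oligodendrocyte-like cells.

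**Figure D3:**
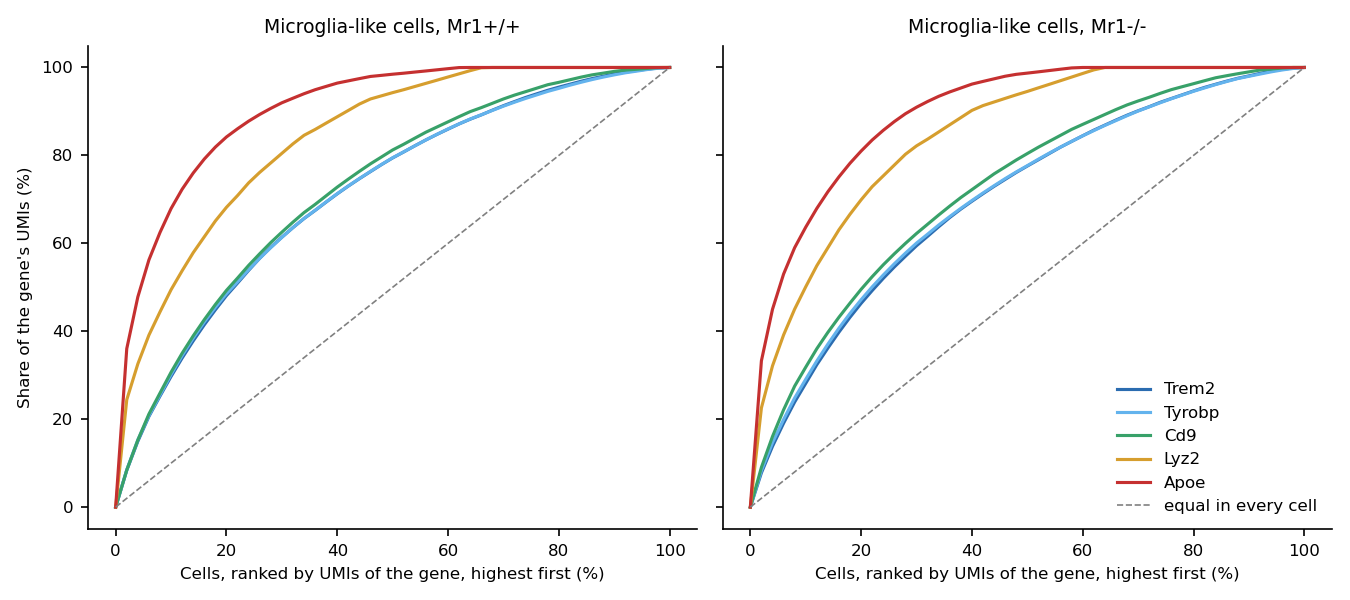
Share of a gene's UMIs (vertical, %) held by the microglia-like cells with the most of it (horizontal, % of cells), for 5 members in each library. Apoe rises most steeply, reaching 67.9% and 63.7% at 10% of the cells, and Trem2, Tyrobp and Cd9 run together between 28.1% and 31.8% there.

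Border macrophages, the resident macrophages of meninges and perivascular spaces, share many microglial genes and could enter the class. Cells with at least 3 of the 7 border macrophage markers (Mrc1, Pf4, Cd163, Lyve1, Cbr2, F13a1 and Ms4a7) numbered 11 and 12. They held 1153 of the 5095 and 1136 of the 5075 Apoe UMIs, at 8333 and 9990 CPM. All other microglia-like cells had Apoe at 1081 and 1025 CPM, a ratio of 0.948 (0.907 to 0.991). The markers were called without thinning, so shallow border macrophages can remain among these other cells. Lyz2 was likewise at 2269 and 2568 CPM in the marker-positive cells and 408 and 401 CPM in the rest. Axl was at 28.9 and 26.4 CPM in the marker-positive cells, from 4 of its 10 and 3 of its 13 UMIs, and at 1.645 and 2.60 CPM in the rest. Trem2 differed little between these groups, with 2580 and 2506 CPM against 2568 and 2649 CPM. All 7 markers were detected in both libraries, with a summed level of 57.6 and 58.4 CPM over the class.

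The class was made of 2 clusters. One was led by Tmem119, Fcrls and Gpr34 (373 and 395 cells), and the other by Ccl4, Lyz2 and Ccl3 (270 and 350 cells), whose cells were deeper (medians of 7448 and 6231 UMIs against 3542 and 3303). Apoe was at 829 and 700 CPM in the first, a ratio of 0.844 (0.776 to 0.918). In the second it was at 1675 and 1618 CPM, a ratio of 0.966 (0.924 to 1.01). The 43 and 95 cells named border macrophage-like at the finer clustering all came from this second cluster. Their part in its Apoe level was not tested. The clusters were built on these same transcripts, so the step between them is a description. Trem2 was at 2558 and 2673 CPM in the first cluster and 2576 and 2628 CPM in the second.

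At the finer clustering the observed Apoe ratio varied between groups of cells. The intervals treat each UMI as independent, while few cells hold many of the Apoe UMIs. They leave out which cells were sampled, so a difference between groups was not tested. In a cluster led by Cx3cr1 (180 and 210 cells) Apoe was at 1411 and 968 CPM, a ratio of 0.686 (0.646 to 0.728). This cluster held 5 Mr1+/+ cells and 1 Mr1-/- cell with at least 3 border macrophage markers, and without them the ratio was 0.751 (0.706 to 0.798). In a cluster led by Fcrls, Upk1b and Tmem119 (199 and 181 cells) the ratio was 0.812 (0.718 to 0.918). A cluster led by Csf1r (149 and 197 cells) had 0.970 (0.870 to 1.08). A shallow cluster led by Ccl6, Cd33 and Csf1r (152 and 95 cells) had 752.5 and 1174 CPM, a ratio of 1.56 (1.27 to 1.92), and 1.24 (0.995 to 1.53) without its 1 Mr1-/- cell with 3 such markers. It includes the 87 and 41 cells that were unnamed before. The border macrophage-like cluster led by Ccl4, Cd74 and Ccl3 had 4782 and 4562 CPM, a ratio of 0.954 (0.884 to 1.03). Of its cells, 6 of 43 and 11 of 95 had at least 3 border macrophage markers, and without these Apoe was at 1381 and 2542 CPM, a ratio of 1.84 (1.58 to 2.16). A further cluster of 7 and 8 cells led by Ccl12 and Ifit3 had 33 and 10 Apoe UMIs. Over the class as reported the log2 ratio of Apoe was -0.07 when UMIs were summed and 0.21 when each cell had the same weight. Over the class of the finer clustering it was -0.32. The direction for Apoe in microglia-like cells thus differed between ways of weighting and grouping the cells, and the cause was not tested.

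**Figure D4:**
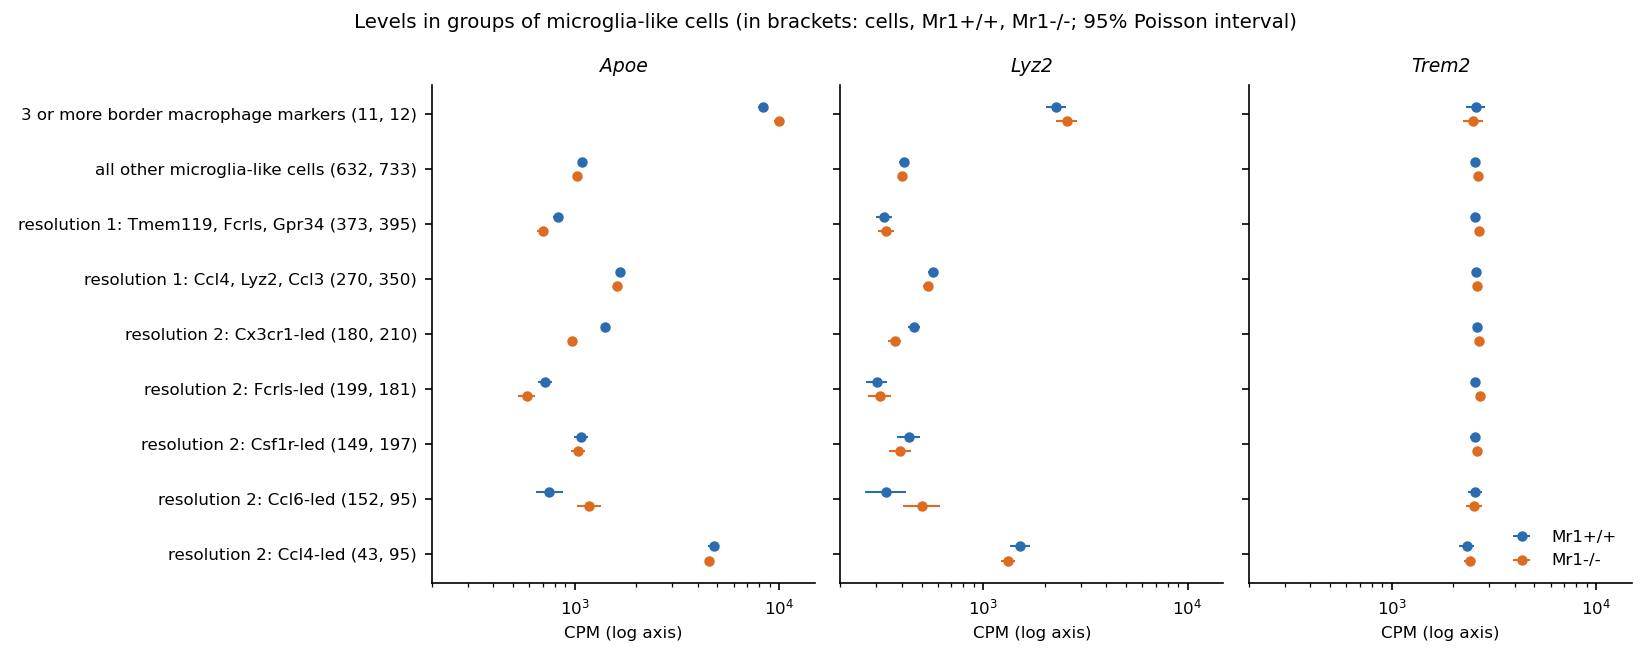
Apoe, Lyz2 and Trem2 levels in groups of microglia-like cells, in CPM on a log axis with 95% Poisson intervals. Rows are cells with at least 3 border macrophage markers, all other microglia-like cells, and the clusters at both resolutions. Clusters of the finer one are named by their first leading gene. Cell numbers are given for Mr1+/+ (blue) and Mr1-/- (orange). Apoe spans from 582 to 9990 CPM over these groups, and Trem2 from 2326 to 2696 CPM. The last row is the cluster named border macrophage-like at the finer clustering, and the cluster of 7 and 8 cells is not drawn.

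Cells that carried several second-stage genes were few. A UMI of at least 2 of Axl, Lpl, Cst7 and Itgax was found in 16 of 643 Mr1+/+ microglia-like cells (2.49%, 1.43 to 4.01) and 12 of 745 Mr1-/- cells (1.61%, 0.835 to 2.80). After thinning to 1500 UMIs these were 3 of 620 cells (0.484%) and 1 of 734 cells (0.136%), with 23 and 11 shallower cells left out. In oligodendrocyte-like cells there were 0 of 1436 and 0 of 957, which allow shares of up to 0.209% and 0.3135% when the limit is taken as 3 counts, and 0.2566% and 0.3847% by the Clopper-Pearson interval. The most frequent pair was Lpl with Cst7, in 7 and 8 cells. Itgax with Cst7 was found in 6 Mr1+/+ cells and 0 Mr1-/- cells. After thinning, Lyz2 was seen in 46.7% of Mr1+/+ cells with an Apoe UMI and 34.0% of those without, and in 47.3% and 27.7% of the Mr1-/- cells. All 3 Mr1+/+ and all 4 Mr1-/- cells with an Axl UMI at that depth also had one of Apoe. Before thinning, 3 of 9 Mr1+/+ and 3 of 12 Mr1-/- cells with an Axl UMI had at least 3 border macrophage markers. The shares with Lyz2, Axl and Apoe were not repeated without such cells. The cells of each genotype come from 1 library, so no test was made.

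Outside microglia, Apoe ranked the classes in the same order in both libraries. It was at 19830 and 18476 CPM in astrocyte-like cells, a ratio of 0.932 (0.918 to 0.945). Ependymal-like cells followed with 10179 and 8431 CPM, a ratio of 0.828 (0.791 to 0.867), and oligodendrocyte-like cells with 2704 and 2874 CPM, a ratio of 1.06 (1.04 to 1.09). Microglia-like cells came next, then endothelial-like cells at 923.5 and 938 CPM. Microglia-like cells with fewer than 3 border macrophage markers, at 1081 and 1025 CPM, also lay above endothelial-like cells. Their cluster led by Tmem119, Fcrls and Gpr34, taken alone, lay below endothelial-like cells in both libraries. Neuroblast-like (664 and 286 CPM), mural-like (191 and 150.5 CPM) and neuron-like cells (33 and 13 UMIs) closed the order, and each class lay above the next in both libraries. The Mr1+/+ place of neuroblast-like cells leans on 1 cell with 128 of their 171 Apoe UMIs. The order without that cell was not examined. Among oligodendrocyte-like cells, the cluster led by Klk6 had less Apoe than the 2 others, at 1831 and 2214 CPM against 2975 and 3106 CPM and 3033 and 3018 CPM. Its ratio was 1.21 (1.14 to 1.28).

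In mural-like cells, which line vessels as pericytes and smooth muscle, Apoe depended on the cluster. Cells led by the smooth muscle genes Tagln, Acta2 and Myh11 had 187 and 73 UMIs (116.5 and 55.1 CPM), a ratio of 0.473 (0.356 to 0.623). Cells led by the pericyte gene Kcnj8 had 142 and 154.5 CPM, a ratio of 1.09 (0.8495 to 1.403). The cluster led by Ccl19 and Steap4 had 880.5 and 690 CPM. The 8 astrocyte markers summed to 60.8 and 28.3 CPM in mural-like cells, with 1 and 2 of them at 0, and their part in the Apoe values was not tested. In neuroblast-like cells 1 Mr1+/+ cell held 128 of the 171 Apoe UMIs. Astrocyte markers summed to 532 and 475 CPM there, with 2 and 0 at 0, and oligodendrocyte markers to 1921 and 88.6 CPM, with 0 and 3 at 0. Their part in the ratio of 0.431 (0.322 to 0.571) was not tested.

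Axl was a gene of mural-like and astrocyte-like cells in these data. In mural-like cells it had 419 and 390 UMIs (154 and 160 CPM), a ratio of 1.04 (0.900 to 1.19). In astrocyte-like cells it had 173 and 116 UMIs (56.9 and 79.2 CPM), a ratio of 1.39 (1.09 to 1.77). Both classes lay well above microglia-like cells, at 2.64 and 3.29 CPM. Among mural-like clusters the one led by Ccl19 had the highest level in both libraries, at 340 and 250.5 CPM.

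Lpl was carried by a few vascular and ventricular groups. Smooth muscle-led mural-like cells had 129 and 110 UMIs (80.4 and 83.0 CPM), and a UMI in 26.1% and 24.1% of cells. The Kcnj8-led cells had 0 and 1 UMI. In ependymal-like cells (56.9 and 39.1 CPM) 22 of 22 and 15 of 16 UMIs came from a cluster of 14 and 13 cells led by Cnmd, Cldn3 and Ucma, at 305 and 379 CPM. The ranges of mural-like and ependymal-like cells overlapped between libraries, so their order is not settled, and both lay above microglia-like cells.

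Cd9 was broad. After microglia-like cells came ependymal-like (1062 and 995.5 CPM) and oligodendrocyte-like cells (906 and 934 CPM). The Klk6-led oligodendrocyte-like cluster was lower, at 349 and 314 CPM against 1014 and 997 CPM and 1246 and 1344 CPM. Smooth muscle-led mural-like cells had 448 and 380 CPM and Kcnj8-led cells 19.4 and 14.7 CPM. Oligodendrocyte precursor-like cells, with 42 and 33 cells too few for the comparison, had 4170 and 3198 CPM.

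Counts past the fold limit among members with at least 50 UMIs were read against all genes of the same class. In astrocyte-like cells 1 of 3 members (Axl) was past it, beside 22.6% of all genes. In mural-like cells it was 2 of 4 (Apoe and Cd9, both lower in Mr1-/-), beside 21%. This class held 410 and 357 smooth muscle-led cells and 441 and 493 Kcnj8-led cells in the Mr1+/+ and Mr1-/- libraries. Cd9 differed widely between these clusters, as given above, and the part of this mix in the class ratio was not tested. In neuroblast-like cells 2 of 2 members were past the fold limit (Apoe and Cd9, both lower), beside 43.6%. For Apoe there, 1 Mr1+/+ cell held 128 of the 171 UMIs, and neither the ratio nor its direction was examined without that cell. No member was past the fold limit in endothelial-like (0 of 2, beside 19.6%), ependymal-like (0 of 2, beside 34.3%), neuron-like (0 of 1, beside 29.5%) or oligodendrocyte-like cells (0 of 2, beside 15.5%).

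The other genes of the pathway were examined in microglia-like cells, counting a gene as measured with at least 20 UMIs. Over all 10154 such genes, 4494 were higher in Mr1-/- and 5660 in Mr1+/+ cells, 2169 were past the fold limit, and the median log2 ratio was -0.03. Of 14 measured TREM2 signalling genes, 7 were higher and 7 lower, none was past the fold limit, and the median was -0.01. The kinase gene Syk, whose product TYROBP recruits, had the lowest ratio, at 89.3 and 73.5 CPM, a ratio of 0.824 (0.702 to 0.966). The phosphatase gene Ptpn6 had the highest, at 246 and 264 CPM. Of the TREM family, only Trem2 and Treml2 (49 and 48 UMIs) were measured.

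All 9 first-stage genes were measured, 6 higher and 3 lower, with none past the fold limit and a median of 0.02. The lysosomal protease gene Ctsd had the lowest ratio, at 6793 and 6274 CPM, a ratio of 0.924 (0.908 to 0.940). Of 15 measured second-stage genes 9 were higher and 6 lower, with a median of 0.03. The 3 past the fold limit were Lpl, Itgax and Csf1, the last at 61 and 87 UMIs and a ratio of 1.36 (0.9723 to 1.925). Gpnmb, a second-stage gene, had 0 UMIs in microglia-like cells of both libraries, and Spp1, the osteopontin gene, had 1 and 8. Csf1, Gpnmb and Spp1 were named after their values were seen. Of 15 homeostatic genes 5 were higher and 10 lower, with none past the fold limit and a median of -0.01, and P2ry12, a purine receptor of surveying microglia, was at 5164 and 4994 CPM.

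Genes of apolipoprotein and lipid handling were 4 higher and 10 lower of 14 measured, with a median of -0.13. The 5 past the fold limit were Lpl, which was higher, and Apod, Clu, Plin2 and Fabp5, which were lower. Fabp5, a fatty acid binding protein gene of astrocytes, had 18 and 5 UMIs, a ratio of 0.266 (0.0771 to 0.743), and Clu, an apolipoprotein gene of astrocytes, had 21 and 10. In astrocyte-like cells Fabp5 was at 965 and 916 CPM and Clu at 9540 and 8973 CPM. The 8 astrocyte markers summed to 214 and 178 CPM in microglia-like cells, with 1 and 2 at 0, and their part in these counts and in the Apoe values was not tested. Plin2, which encodes a coat protein of lipid droplets, was at 44.65 and 35.4 CPM, a ratio of 0.7925 (0.629 to 0.997). Apod, Clu and Plin2 were named after their values were seen. Lrp1, a receptor for apolipoprotein E, was at 246 and 284 CPM, a ratio of 1.16 (1.06 to 1.26).

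Relatives of single members were read in the same way. Of the 4 measured genes among the receptors of the Axl family and their ligands, 3 were higher and 1 lower, with a median of 0.13 and none past the fold limit, and Mertk, the family member of resting microglia, was at 341 and 319 CPM. Of 7 tetraspanin genes 3 were higher and 4 lower, with none past the fold limit, and Cd81 was at 5186 and 5002 CPM. Of 3 measured cystatin genes 2 were higher and 1 lower, and Cst3 was at 90895 and 91623 CPM. Of 3 measured genes of CD11c and its relatives 1 was higher and 2 lower, with Itgax past the fold limit, and Itgam, the chain of CD11b, was at 207 and 213 CPM. Of 4 measured genes downstream of dectin-1, 1 was higher and 3 lower, with none past the fold limit.

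The genes most like each member over 8 classes in both libraries (16 points that share libraries and class depth, 11482 genes searched) were named by the Pearson correlation of log2(CPM + 10). For Trem2 they were Spi1, Itgb2 and Gm15537, with the highest r at 0.999. For Tyrobp they were Fcer1g, Cx3cr1 and C1qc, with the highest at 0.998. Trem2 and Tyrobp were nearly limited to a single class, which by itself gives a high r with any gene limited in the same way. Their r therefore cannot be set against that of Apoe, which was detected in every class. For Apoe they were Mt1 at 0.874, Tmem33 at 0.851 and Dcxr at 0.845. Axl was closest to Gm11627 (0.981), Lhfp and Prrx1. Lpl was closest to Ajuba (0.948), Kcnmb1 and Ccdc3, and Cd9 to Spsb1 (0.894), Fam46a and Tmc6.

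**Figure D5:**
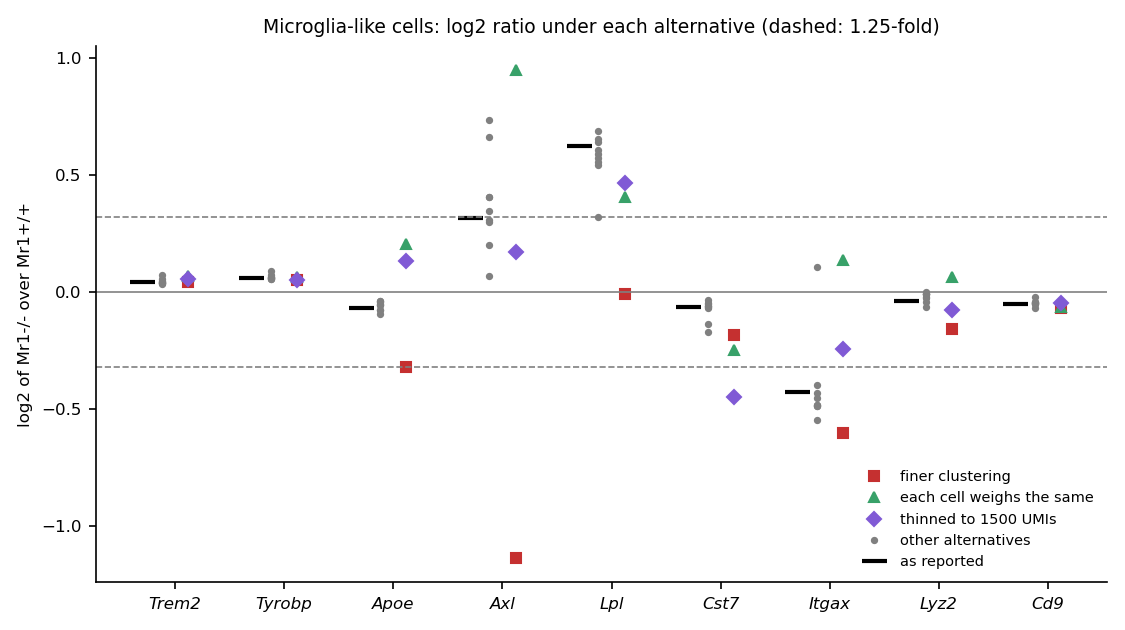
Log2 of the Mr1-/- over Mr1+/+ ratio of the 9 measured members in microglia-like cells as reported (black) and under each alternative setting (symbols), with dashed lines at the fold limit. Trem2 and Tyrobp stay between 0.04 and 0.09, Apoe spans -0.32 to 0.21, and Axl, Lpl and Itgax, with few UMIs, spread most.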

How the data were processed

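Single-cell RNA was measured in 1 hippocampal library of each genotype. The authors deposited raw UMI counts per gene and barcode, with no normalization. Cell Ranger 5.1.0, STAR and mm10 are named in the submitters' processing notes, while the matrix header gives software version 3.1.0 with no tool name. No source used here says whether counting used strand. Cd9 and Gm28809 have separate counts, but UMIs from bases where they overlap cannot be assigned to 1 of them with certainty.

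Cells with at least 300 genes and at most 10% mitochondrial UMIs were kept, and Scrublet (expected rate 0.05) removed 335 of 6327 and 171 of 5278 cells as doublets. Clustering used scanpy 1.11.5 and leidenalg 0.10.2 (2000 variable genes, 30 components, 15 neighbours, resolution 1.0, seed 7), with no integration, and gave 23 clusters. Clusters were named "-like" from markers, and 2 shallow clusters (184 and 112 cells) stayed unnamed. One of them, with 87 and 41 cells, carries microglia markers and is treated as an added alternative. Names rebuilt this way can differ from the study's.

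UMIs were summed per class and library over the class total (CPM). A class was compared where both libraries held at least 50 of its cells. Intervals are exact 95% Poisson, conditional binomial or Clopper-Pearson intervals. They cover counting error only, with no replicate behind any ratio. The ratio step was tested on simulated data. Python 3.11.15, NumPy 2.4.6 and SciPy 1.17.1 were used. Promoters are from RefSeq (GRCm38.p6), which had entries for 7 of the 9 measured members, not Tyrobp and Lpl. Positions are from GENCODE M21.

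The members and lists were chosen with earlier results of these data known. All 10 members are named. From each list, genes were eligible by most UMIs (up to 3) or by the highest or lowest ratio, and for 6 members the 3 genes most like each. Alternatives changed filters, doublets, depth, scaling, weights and clustering.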

Additional observations from a re-analysis of the deposited data

How the results depend on the processing

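Of 148 alternative values, 135 moved by less than the counting error (or, for the number of members past the fold limit, stayed the same) and 13 by more. Of the 119 alternative log2 ratios, 8 had the opposite sign to the value reported: Apoe, Itgax and Lyz2 under 2 alternatives each, and Axl and Lpl under 1 each. For Itgax these were 0.14 with each cell at the same weight and 0.11 without its 5 highest cells (-0.43 as reported), and Lyz2 was at 0.001039 without its 5 highest cells (-0.04 as reported). Trem2 and Tyrobp kept their direction in all 12 alternatives each, with log2 ratios of 0.04 to 0.07 and 0.05 to 0.09. At Leiden resolution 2.0 the log2 ratio in microglia-like cells was -0.008484 for Lpl (0.62 as reported), -0.32 for Apoe, -1.14 for Axl and -0.16 for Lyz2. There 0 members with at least 50 UMIs over both libraries were past the fold limit. With cells thinned to 1500 UMIs Apoe was at 0.13, 0 members with enough UMIs were past the fold limit, and the shares with at least 2 of Axl, Lpl, Cst7 and Itgax were 0.484% (Mr1+/+) and 0.136% (Mr1-/-). With each cell at the same weight, Apoe was at 0.21 and Lyz2 at 0.06375 in microglia-like cells, and Apoe at -0.08064 in astrocyte-like cells, where median-of-ratios scaling gave -0.07918. The finer clustering by its construction took 43 and 95 cells out of the class and 87 and 41 into it. The cause of the shifts was not tested. Adding the unnamed shallow cluster, chosen after seeing the data, moved no value beyond counting error. No microglia-like cluster was shallow enough to be left out, so that alternative gave no value. No paired analysis was possible because each genotype has 1 library and no result comes from a test. Depth limits Axl, Itgax, Lpl and Cst7, with 10 to 74 UMIs per library.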

Other observations

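The unnamed shallow cluster with microglia markers, led by Ccl4, Ccl6 and Lyz2, made up 1.45% of Mr1+/+ and 0.803% of Mr1-/- cells, with medians of 899 and 969 UMIs. Apoe was at 721 CPM from 64 UMIs in the Mr1+/+ library and 2229 CPM from 98 UMIs in the Mr1-/- library, a ratio of 3.09 (2.23 to 4.305). A single Mr1-/- cell with at least 3 border macrophage markers held 47 of the 98 Apoe UMIs and 14 of the 53 Lyz2 UMIs. Without it, a setting chosen after seeing the data, Apoe was at 1197 CPM, a ratio of 1.66 (1.13 to 2.435), and Lyz2 at 915 CPM. Lyz2 was at 394 and 1206 CPM, and Trem2 at 2592 and 1683 CPM, a ratio of 0.6495 (0.4929 to 0.8474). Tyrobp was at 4091 and 4482 CPM. These cells are in no named class at the resolution used for the classes.

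Fibroblast-like cells, with 29 and 32 cells too few for the comparison, carried Apoe at 4545 and 5927 CPM, Axl at 99.4 and 50.7 CPM from 11 and 6 UMIs, and Lpl at 154 and 109.9 CPM from 17 and 13 UMIs. Among endothelial-like cells, a cluster led by the venous genes Lrg1, Ackr1 and Vwf (38 and 33 cells) had Apoe at 2149 and 1676 CPM, above the cluster led by Ctla2a, Hmcn1 and AU021092 at 953 and 976 CPM.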
